A study of Mus musculus with 6 samples.

Results

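Of the 32285 genes in the deposited matrices, 10 genes of the photoreceptor injury and gp130 pathway are described here: the ligands Edn2, Fgf2 and Lif, the antisense RNA Fgf2os, the receptors Ednrb, Il6st and Lifr, and the effectors Stat3, Cebpd and Socs3. They were chosen by their symbols after their RNA levels in these libraries had been seen, so their levels and ratios are a description. All 10 were found, each as 1 row per library. The study profiled the RNA and the open chromatin of the same nuclei (10x Genomics single-nucleus multiome) from retinas of C57BL/6J mice, in 3 libraries. The control retinas are labelled naïve; the other retinas are labelled 2 or 4 weeks AVI, with an AAV2/2 virus that overexpresses Wif1, a secreted inhibitor of WNT ligands, from the CMV promoter, which is active in many cell types. Each group is 1 library from 2 eyes, 6 eyes in all; how the eyes were pooled, and which of the 2 Wif1 vectors was used, with or without IRES-GFP, is not stated. A control virus is described by the study, but no library of it is analysed here, so injection, vector, Wif1 and library cannot be told apart. Nuclei came from live retinal cells isolated with papain.

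Endothelin-2, the product of Edn2, is a short secreted peptide that photoreceptors make after light damage or genetic degeneration, and its receptor EDNRB is known from Müller glia, where it is linked to GFAP and FGF2 induction. Leukemia inhibitory factor, made by Müller glia in injured retina, binds a pair of chains, LIFR and gp130 (Il6st). The pair activates Janus kinases and then the transcription factor STAT3, which induces its own gene, Cebpd and the feedback inhibitor Socs3; FGF2 and this pathway are both known to protect photoreceptors.

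The control, 2-week and 4-week libraries hold 21805441, 14568384 and 19997276 RNA molecules (unique molecular identifiers, UMIs) and 37525307, 90490537 and 71304238 ATAC counts in peaks. After filters, 7172, 8996 and 8831 nuclei were kept, with a median of 1635, 803 and 1199 UMIs. Wif1 itself had 1, 11 and 37 UMIs, and 0, 2 and 9 in Müller-like nuclei. Nuclei were clustered and classes named from marker genes: rod-like (4177, 5674 and 6063 nuclei), bipolar-like (1628, 1579, 1608), cone-like (386, 479, 455), amacrine-like (493, 232, 129), Müller-like (98, 279, 226) and endothelial-like (68, 59, 79). The classes draw on different clusters in each library: of the rods, cluster 4 holds 1855, 550 and 1060 nuclei and cluster 1 holds 284, 2126 and 958, and of the amacrine-like nuclei, cluster 20 holds 100, 91 and 42 and cluster 21 holds 119, 94 and 56, while 3 sub-clusters of cluster 13 hold control nuclei alone. Smaller classes and unnamed clusters hold the rest, the unnamed ones 3.14%, 5.92% and 2.26% of kept nuclei, and 516 barcodes occur in more than 1 library. Levels are in CPM, the gene's UMIs scaled to the class's total UMIs, and intervals in parentheses are exact 95% intervals that cover counting error only. With 1 library per group no test between groups is possible. Values in series follow the order control, 2 weeks, 4 weeks.

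The sequences upstream of 3 genes are shown because the chromatin results turn on these starts: that of Edn2, open at 2 and 4 weeks with no peak called in the control, that of Stat3, open in every library, and that of Socs3, with a peak over the start at 2 weeks alone. Each is the 250 bases before the RefSeq gene start on build GRCm38.p6, read 5′ to 3′ on the gene's strand: Edn2 at chr4:120160956-120161205 on the plus strand, Stat3 at chr11:100939541-100939790 and Socs3 at chr11:117969367-117969616, both on the minus strand. Capitals mark the match to the STAT motif TTCNNNGAA.
Edn2 promoter: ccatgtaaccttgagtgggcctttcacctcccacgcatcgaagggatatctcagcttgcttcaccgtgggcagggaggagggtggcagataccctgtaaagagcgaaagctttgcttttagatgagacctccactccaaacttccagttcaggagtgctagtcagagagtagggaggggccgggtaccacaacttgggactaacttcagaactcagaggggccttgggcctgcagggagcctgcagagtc
Stat3 promoter: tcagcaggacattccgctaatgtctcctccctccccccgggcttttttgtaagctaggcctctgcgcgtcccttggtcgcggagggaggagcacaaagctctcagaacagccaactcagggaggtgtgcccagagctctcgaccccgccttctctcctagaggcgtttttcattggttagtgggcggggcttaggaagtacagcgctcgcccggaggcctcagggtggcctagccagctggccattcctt
Socs3 promoter: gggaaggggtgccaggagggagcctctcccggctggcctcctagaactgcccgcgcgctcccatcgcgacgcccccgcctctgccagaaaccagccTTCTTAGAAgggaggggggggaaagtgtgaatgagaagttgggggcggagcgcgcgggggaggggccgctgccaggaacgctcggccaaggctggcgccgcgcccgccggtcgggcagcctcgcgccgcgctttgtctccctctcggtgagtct
RefSeq promoters were matched for 9 of the 10 members, not for Cebpd. On either strand of these 250 bases, the STAT motif TTCNNNGAA was found in Socs3 alone, 154 bases before its start, as TTCTTAGAA, and in 7.01% of 32817 promoters. The AP-1 motif TGANTCA was found in Lif, 228 bases before its start, and in 6.75% of promoters. The motif TAATCC of the photoreceptor factors CRX and OTX2 was found in Ednrb, on the reverse strand 25 bases before its start, and in 6.25% of promoters. No other member held any of the 3 motifs in this window, which says only that these letters are not there. No member held more than 1 of the 3 motifs.

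Edn2 RNA was nearly all in rod-like nuclei and was highest at 2 weeks. Rods held 11, 204 and 33 Edn2 UMIs, or 1.96 CPM (0.98 to 3.51), 46.3 CPM (40.2 to 53.1) and 4.52 CPM (3.11 to 6.35). The 2-week level was 23.6-fold that of the control (12.9 to 48) and the 4-week level 2.3-fold (1.14 to 5.05). The 4-week level was 10.2-fold lower than the 2-week level (7.07 to 15.3). The 2-fold mark at 4 weeks rests on few molecules and was not reached when nuclei needed 1000 UMIs, when nuclei were classed by their highest marker score, or when each library was clustered alone (log2 0.16 in place of 1.20).

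An Edn2 UMI was seen in 8 of 4177, 174 of 5674 and 31 of 6063 rods, which is 0.192%, 3.07% and 0.511%. Thinned to 500 UMIs per nucleus, the shares were 0.0958%, 1.97% and 0.214%, although the 2-week rods were the shallowest, with a median of 696.5 UMIs against 1164 and 1021. Bipolar-like nuclei, which are not a known source of Edn2, held 0, 4 and 0 UMIs at deeper medians of 3774, 2345 and 3261 UMIs, a share of 0.253% at 2 weeks. A count of 0 there allows up to 0.465 CPM in the control and 0.543 CPM at 4 weeks, at 3 counts per library. Rod transcripts made up an estimated 7.52% of the bipolar-like RNA at 2 weeks, and at that share 13.2 Edn2 UMIs would come with it, more than the 4 found. The part of rod RNA in these 4 was not tested.

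The other classes gave few Edn2 molecules. Cones, the other photoreceptor, held 0, 5 and 0 UMIs, fewer than the 14.2 that would come with their estimated rod RNA at 2 weeks. Amacrine-like nuclei held 0, 6 and 0 (2.32 from rod RNA at 2 weeks), Müller-like nuclei 0, 2 and 0 (1.58 from rod RNA) and unnamed clusters 0, 14 and 0. Outside rods, Edn2 was thus detected at 2 weeks alone.

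**Figure D1:**
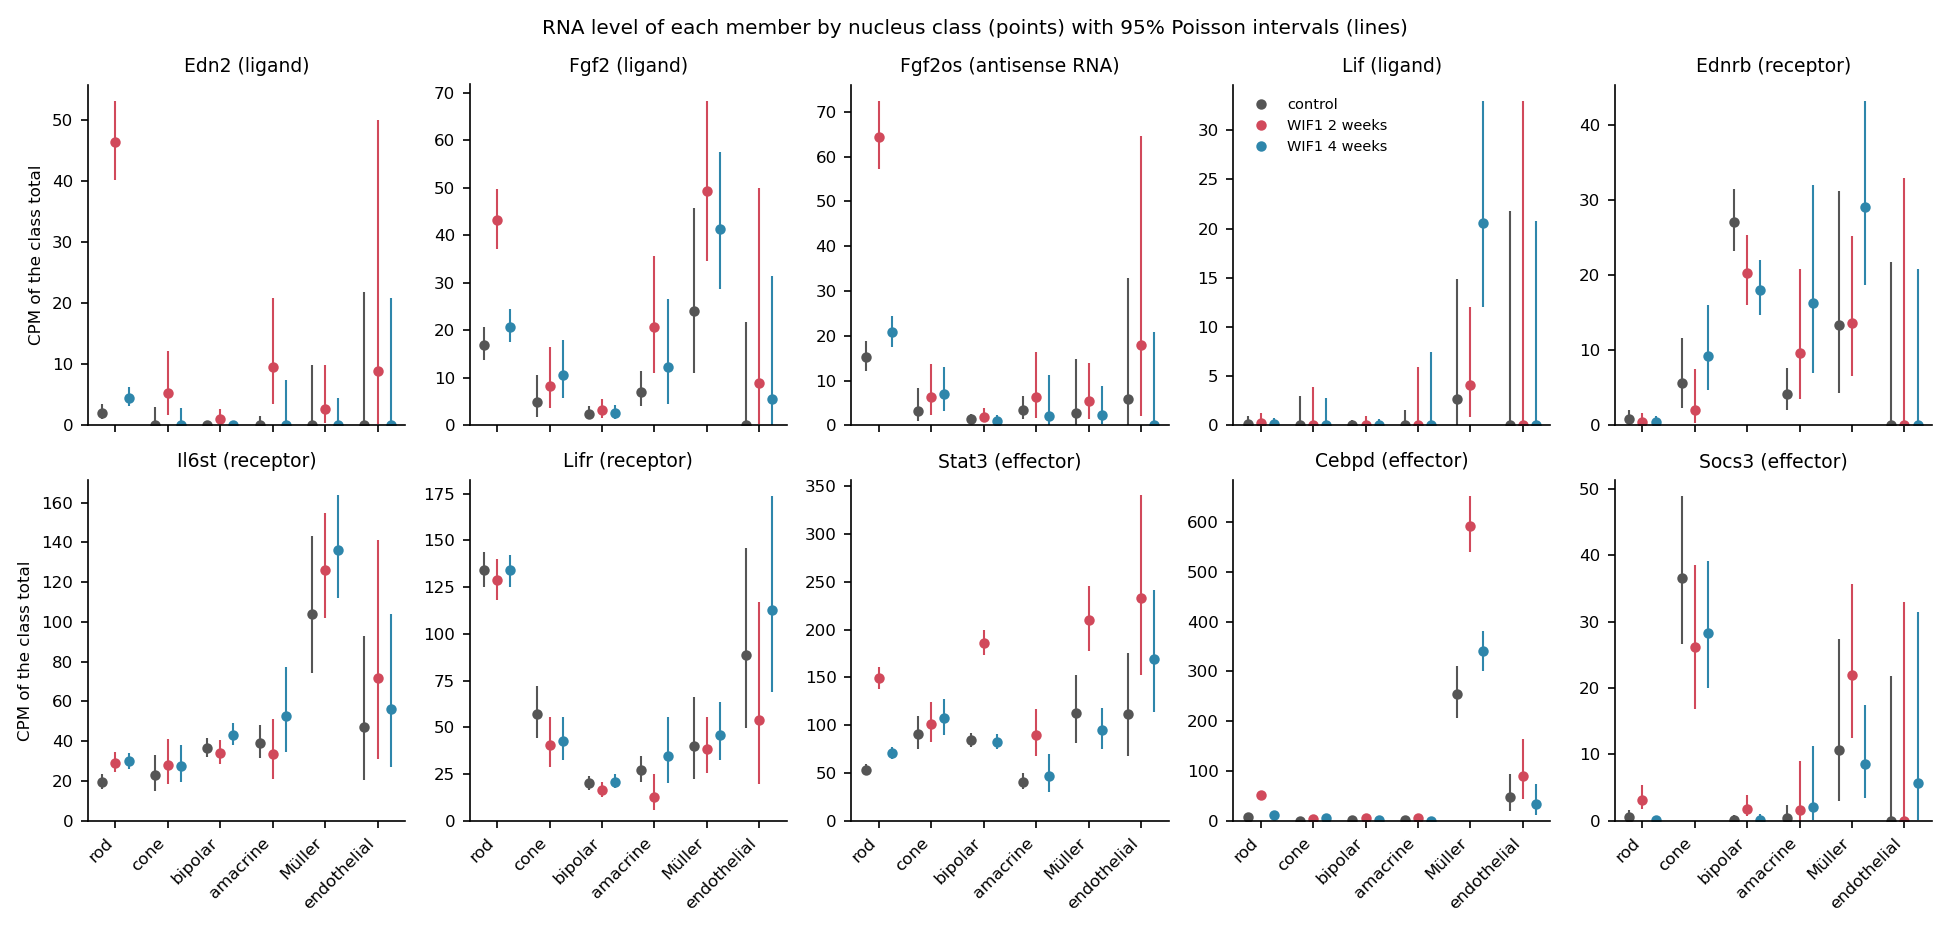
Level of each member in CPM (vertical axis) in 6 retinal cell classes (horizontal axis), 1 panel per gene, 1 point per library with its exact 95% counting interval. Edn2 and Fgf2os stand highest in 2-week rods (46.3 and 64.5 CPM), Cebpd in 2-week Müller-like nuclei (593 CPM), and Lifr in rods lies between 129 and 134 CPM in the 3 libraries.

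Chromatin at Edn2 followed the same order over the libraries. A peak over the gene start (chr4:120160893-120161805, the merged extent) was called at 2 and 4 weeks and not in the control, where peaks were fewest (54429, 103911 and 75686) and for which no level can be given. Promoter levels are in promoter CPM, scaled to the ATAC counts in promoters that have a peak within 1000 bp in all 3 libraries. On this scale the Edn2 start had 80.7 CPM in rods at 2 weeks and 23.4 at 4 weeks, a ratio of 0.29 (0.263 to 0.319). In the other classes at 2 weeks it was lower, at 29.8 CPM in Müller-like nuclei (19.8 to 43.1), 17.7 in cones, 16.2 in endothelial-like, 8.87 in bipolar-like and 6.92 in amacrine-like nuclei. A peak 2.4 kb upstream (chr4:120158353-120159334) was called in all 3 libraries and does give a control value. It held 74, 982 and 343 counts in rods, or 8.38, 44 and 15 CPM, 5.25-fold the control at 2 weeks (4.15 to 6.75) and 1.79-fold at 4 weeks (1.39 to 2.33). In bipolar-like nuclei the same peak held 2.99, 7.06 and 2.54 CPM.

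Fgf2 encodes basic fibroblast growth factor, and Fgf2os is transcribed from the opposite strand of the same locus. Whether the counting used the strand is not given in the sources used here, so reads of Fgf2, Fgf2os and the overlapping gene Nudt6 may not be fully told apart. Rods held 95, 190 and 152 Fgf2 UMIs, or 17.0, 43.2 and 20.8 CPM. The 2-week level was 2.55-fold the control (1.98 to 3.29) and the 4-week level 1.23-fold (0.944 to 1.6). In Müller-like nuclei Fgf2 was at 24.1, 49.3 and 41.3 CPM from 9, 36 and 34 UMIs, 2.05-fold at 2 weeks with an interval that includes no difference (0.967 to 4.83). Amacrine-like nuclei held 17, 13 and 6 UMIs, too few for the count of measured members, at 7.1, 20.8 and 12.2 CPM. Fgf2os in rods was at 15.2, 64.5 and 20.8 CPM from 85, 284 and 152 UMIs, 4.25-fold at 2 weeks (3.33 to 5.48) and 1.37-fold at 4 weeks (1.05 to 1.81). The 4-week direction turned, to a log2 ratio of -1.20, when each library was clustered alone. The other 5 large classes held at most 9 Fgf2os UMIs in a library.

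At the Fgf2 start the peak called in all 3 libraries had 11.7, 20.7 and 17.4 CPM in rods, 1.78-fold the control at 2 weeks (1.43 to 2.22) and 1.49-fold at 4 weeks (1.2 to 1.87). In bipolar-like nuclei, which held 16, 12 and 14 Fgf2 UMIs where their estimated rod RNA would give 16.6, 12.3 and 11.2, it had 9.82, 6.61 and 4.12 CPM. Inside the gene, a peak 4.0 kb past the start was called at 2 and 4 weeks alone, with 31.3 and 13.7 CPM in rods. A peak 6.5 kb past the start, called in all 3, had 5.21, 12.3 and 6.21 CPM, 2.37-fold at 2 weeks (1.73 to 3.31).

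Lif, the leukemia inhibitory factor, was near its detection limit. Müller-like nuclei held 1, 3 and 17 UMIs in 1, 3 and 4 nuclei, 20.6 CPM at 4 weeks (12 to 33). Of the 17 UMIs, 7 came from 1 nucleus, and 10 were left without it. Rods held 1 Lif UMI in each library and every other class 0. So the level at 4 weeks rests on 4 of 226 Müller-like nuclei. A peak over the Lif start was called in the control alone, with 5.89 promoter CPM in rods. Summed within 1000 bp of the start, rods had 17.9, 23.3 and 18.5 CPM. The ratios to the control were 1.3 at 2 weeks (1.09 to 1.57) and 1.04 at 4 weeks (0.862 to 1.25), over differing peaks. The peak 1.4 kb past the start, called in all 3 libraries and picked after its values were seen, had 12, 23.3 and 18.5 CPM. That peak was 1.94-fold the control at 2 weeks (1.57 to 2.42).

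By UMI count Ednrb, the endothelin receptor, was measured mainly in bipolar-like nuclei, at 27.1 CPM (23.3 to 31.5), 20.3 CPM (16 to 25.4) and 18.1 CPM (14.7 to 22). The treated levels were 0.749-fold the control at 2 weeks (0.566 to 0.985) and 0.667-fold at 4 weeks (0.517 to 0.858), from 175, 77 and 100 UMIs. Rods, the class with Edn2, held 5, 2 and 3 Ednrb UMIs. An Ednrb UMI was seen in 7.68%, 4.24% and 4.73% of bipolar-like nuclei, 1.29%, 1.33% and 0.746% after thinning, against 0.12%, 0.0352% and 0.0495% of rods. The thinned shares rest on few nuclei and are given without intervals, so nothing is read from them against the lower CPM at 2 weeks.

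The bipolar signal came from 5 of 10 clusters. Clusters 23 (led by Brinp3 and Chrm2) and 24 (led by Areg) were highest, at 136, 83.6 and 78.5 CPM and at 109, 82.8 and 93.4 CPM. Cluster 19 (led by Cck) had 60.9, 42.4 and 27.8 CPM, cluster 8 (led by Sox6) 52.4, 66.9 and 50, and cluster 11 (led by Il1rapl2) 57.4, 46.1 and 46.9. The other 5, led by Neto1, Gm30725, Kcnip4, Erbb4 and Lrp1b, held 0 or 1 UMI per library. Cluster 8 thus did not share the lower 2-week level, and its interval at 2 weeks (41.9 to 101) overlaps that of the control (34.6 to 76.3).

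Outside bipolar cells, Müller-like nuclei held 5, 10 and 24 Ednrb UMIs, 13.4 CPM (4.35 to 31.3), 13.7 CPM (6.57 to 25.2) and 29.1 CPM (18.7 to 43.3). The 4-week interval overlaps both others, and the 4-week level was above that of bipolar-like nuclei, with overlapping intervals. The pericyte or smooth muscle-like cluster held 0, 7 and 11 UMIs in 49, 44 and 55 nuclei, or 0, 81.5 and 80.8 CPM. Its levels at 2 and 4 weeks were above those of the bipolar-like class. It was smaller than the 50 nuclei asked for in the control and 2-week libraries. Endothelial-like nuclei held 0 in each library. Among amacrine-like nuclei, cluster 13.5, led by Cxcl14 and Maf, held 8, 6 and 8 UMIs in only 33, 24 and 17 nuclei. No peak within 1000 bp of the Ednrb start was called in the control, and at 2 and 4 weeks it had 9.32 and 7.77 CPM in bipolar-like nuclei. A peak 13.1 kb into the gene, called in all 3 libraries, had 17.3, 24 and 21.6 CPM there.

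**Figure D2:**
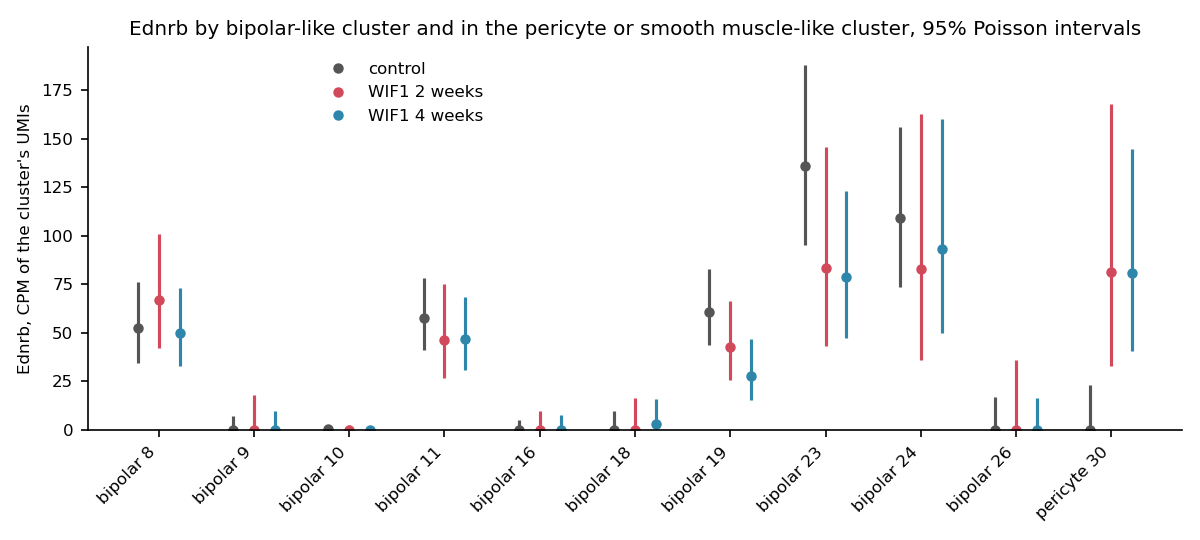
Ednrb level in CPM (vertical axis) in each bipolar-like cluster and the pericyte or smooth muscle-like cluster (horizontal axis), 1 point per library with its exact 95% counting interval. Clusters 8, 11, 19, 23 and 24 carry the bipolar signal, and the treated libraries' pericyte or smooth muscle-like points stand at 81.5 and 80.8 CPM beside 0 in the control.

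The shared receptor chain Il6st (gp130) was highest in Müller-like nuclei among the 6 large classes in all 3 libraries. Its level there was 104 CPM (74.3 to 143), 126 CPM (102 to 155) and 136 CPM (112 to 164), which overlap. In rods Il6st was at 19.6, 29.3 and 30 CPM, 1.49-fold the control at 2 weeks (1.15 to 1.94) and 1.53-fold at 4 weeks (1.21 to 1.94), so the level stayed alike between 2 and 4 weeks, unlike that of Edn2. Bipolar-like nuclei had 36.8, 34.3 and 43.3 CPM. The Il6st start in rods had 162, 193 and 186 promoter CPM, 1.19-fold and 1.15-fold the control.

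Lifr, the ligand-specific chain, differed least among the members in rods. Its rod level was 134 CPM (125 to 144), 129 CPM (118 to 140) and 134 CPM (125 to 142), with ratios to the control of 0.958 (0.858 to 1.07) and 0.994 (0.903 to 1.09). Rods had the highest Lifr level of the 6 classes in each library. Cones had 56.9, 40.8 and 42.9 CPM and Müller-like nuclei 40.2, 38.4 and 46.1 CPM. Rod transcripts made up an estimated 35%, 32% and 35.3% of cone RNA and 15.2%, 4.69% and 9.11% of Müller-like RNA. The part of rod RNA in these Lifr levels was not tested. In amacrine-like nuclei Lifr was at 27.1, 12.8 and 34.6 CPM, 0.472-fold the control at 2 weeks (0.196 to 0.987) from 65 and 8 UMIs, beside an estimated rod share of RNA of 18.9% and 8.04%, whose part was not tested. The Lifr start in rods had 247, 276 and 250 promoter CPM.

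Stat3, the transcription factor that gp130 activates, was higher at 2 weeks in rods, bipolar-like, Müller-like and amacrine-like nuclei, and lower again at 4 weeks. Rods were at 53.4 CPM (47.5 to 59.8), 149 CPM (138 to 161) and 71.1 CPM (65.1 to 77.5), 2.79-fold the control at 2 weeks (2.43 to 3.21) and 1.33-fold at 4 weeks (1.15 to 1.54). Bipolar-like nuclei were at 84.2, 186 and 82.6 CPM, 2.21-fold (1.97 to 2.48) and 0.981-fold (0.864 to 1.11). Müller-like nuclei were at 113, 210 and 94.6 CPM, 1.86-fold (1.32 to 2.69) and 0.841-fold (0.571 to 1.25). Amacrine-like nuclei were at 40.9, 89.7 and 46.8 CPM, 2.19-fold at 2 weeks (1.55 to 3.08). Within the 4 largest rod clusters Stat3 was also highest at 2 weeks, at 42.6, 61.1 and 58.4 CPM in cluster 0, 56.6, 125 and 83.2 in cluster 1, 51.4, 135 and 69.8 in cluster 2 and 52.3, 120 and 57.7 in cluster 4, although in cluster 0 the control and 2-week intervals overlap. Amacrine-like cluster 20 had 50.9, 143 and 30.3 CPM and cluster 21 had 37.4, 73 and 51.4, the latter with overlapping intervals in the control (24.9 to 54.1) and at 2 weeks (44.6 to 113). In cones Stat3 was at 91, 101 and 107 CPM, 1.11-fold at 2 weeks with an interval (0.84 to 1.48) that lies below the rod interval. The difference between cones and rods has no test over samples.

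A Stat3 UMI was seen in 6.37%, 9.5% and 6.88% of rods and, after thinning, in 2.71%, 6.42% and 3.12%. The thinned shares of bipolar-like nuclei were 3.99%, 8.93% and 4.35%, and those of cones 4.66%, 4.38% and 4.84%. The 2-week share was thus the highest in rods and bipolar-like nuclei, and not in cones. The Stat3 start, whose sequence is printed above, was open in each library, with 238, 345 and 298 promoter CPM in rods, 1.45-fold the control at 2 weeks (1.38 to 1.53) and 1.25-fold at 4 weeks (1.19 to 1.32). Over all promoters measured in rods, the 95th percentile of the ratio was 1.52 at 2 weeks and 1.28 at 4 weeks. In Müller-like nuclei it had 244, 297 and 261 CPM, 1.22-fold at 2 weeks (0.926 to 1.62).

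Cebpd, a transcription factor gene that STAT3 is known to induce, was highest in Müller-like nuclei among the 6 large classes. Müller-like nuclei held 95, 433 and 280 UMIs, or 255 CPM (206 to 311), 593 CPM (539 to 652) and 340 CPM (301 to 382). These are 2.33-fold the control at 2 weeks (1.86 to 2.94) and 1.33-fold at 4 weeks (1.05 to 1.7). At 4 weeks 69 of the 280 UMIs lay in 3 of the 4 nuclei with a Lif UMI, and the nuclei without Lif were at 256, 589 and 260 CPM, so the 4-week excess rests on those few nuclei. A Cebpd UMI was seen in 42.9%, 52% and 43.8% of Müller-like nuclei, 8.16%, 17.9% and 11.1% after thinning, against 0%, 0.626% and 1.32% of cones. Rods stood far lower, at 7.67, 52.7 and 10.8 CPM from 43, 232 and 79 UMIs, but with the larger ratio, 6.87-fold at 2 weeks (4.94 to 9.74) and 1.41-fold at 4 weeks (0.961 to 2.1), a direction that turned (log2 -0.65) when each library was clustered alone. The pericyte or smooth muscle-like cluster had 112, 571 and 147 CPM from 18, 49 and 20 UMIs.

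The Cebpd start had 8.49, 22.4 and 10.3 promoter CPM in rods, 2.64-fold the control at 2 weeks (2.07 to 3.41) and 1.21-fold at 4 weeks (0.93 to 1.59). In Müller-like nuclei it had 97.7, 156 and 123 CPM, 1.6-fold at 2 weeks (1.05 to 2.53). Over all promoters measured in Müller-like nuclei, the 95th percentile of the 2-week ratio was higher, at 2.17. In bipolar-like nuclei, with little Cebpd RNA, it had 6.62, 4.96 and 6.97 CPM.

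Socs3, the feedback inhibitor, was measured best in cones, at 36.6 CPM (26.7 to 48.9), 26.1 CPM (16.9 to 38.6) and 28.3 CPM (20 to 39.1), which overlap. In other classes it was sparse. Rods held 3, 14 and 1 UMIs and Müller-like nuclei 4, 16 and 7, both highest at 2 weeks and both below the 30 UMIs asked for. Microglia or macrophage-like nuclei held 0, 11 and 2 UMIs in 15, 71 and 15 nuclei. Peaks within 1000 bp of the Socs3 start differed between libraries, and the peak over the start itself (chr11:117968941-117969670), which holds the printed sequence with its STAT motif match, was called at 2 weeks alone, with 160 CPM in Müller-like nuclei, 58.9 in cones, 9.41 in rods and 6.76 in bipolar-like nuclei. Summed within 1000 bp of the start, rods had 21.1, 22.2 and 16.7 CPM, 1.06-fold the control at 2 weeks (0.89 to 1.26) and 0.791-fold at 4 weeks (0.662 to 0.948). Peaks called in all 3 libraries differed in direction in rods. The peak 1.0 kb past the start had 3.99 CPM at 2 weeks, 0.32-fold the control (0.24 to 0.428), and the peak 17.6 kb upstream had 83.4, 63.2 and 71.6 CPM, both lowest at 2 weeks. The peak 5.6 kb past the start, picked after its values were seen, had 29.7, 64 and 42.7 CPM in rods, 2.16-fold the control at 2 weeks (1.89 to 2.47), and 67.6, 136 and 131 CPM in Müller-like nuclei, 2.02-fold (1.23 to 3.51).

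Counted over the members with at least 30 UMIs in the higher library, 5 of 7 were at least 2-fold higher in 2-week rods: Edn2, Cebpd, Fgf2os, Stat3 and Fgf2. The background was 3.08% of 10576 genes. Since these ratios chose the members, nothing is read from the count. At 4 weeks 1 of 7, Edn2, was at least 2-fold higher, beside 0.349% of genes. In Müller-like nuclei it was 2 of 4 at 2 weeks (Fgf2 and Cebpd; background 5.83%) and 0 of 5 at 4 weeks (2.51%), in bipolar-like nuclei 1 of 4 (Stat3; 1.84%) and 0 of 4 (0.178%), in cones 0 of 3 at 2 weeks (2.7%), and in amacrine-like nuclei 1 of 3 (Stat3; 2.37%). The members' median log2 ratio was 1.48 in 2-week rods and 0.46 in 4-week rods, where all measured genes had medians of 0.05 and 0.04. In bipolar-like nuclei at 2 weeks it was -0.19 beside 0.00. Compared with 2 weeks, the 5 genes named for rods were all at least 2-fold lower in 4-week rods, beside 2.75% of 10883 genes. They were chosen for being high at 2 weeks, so nothing is read from this count either. The 2-week and 4-week comparisons share the control library.

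**Figure D3:**
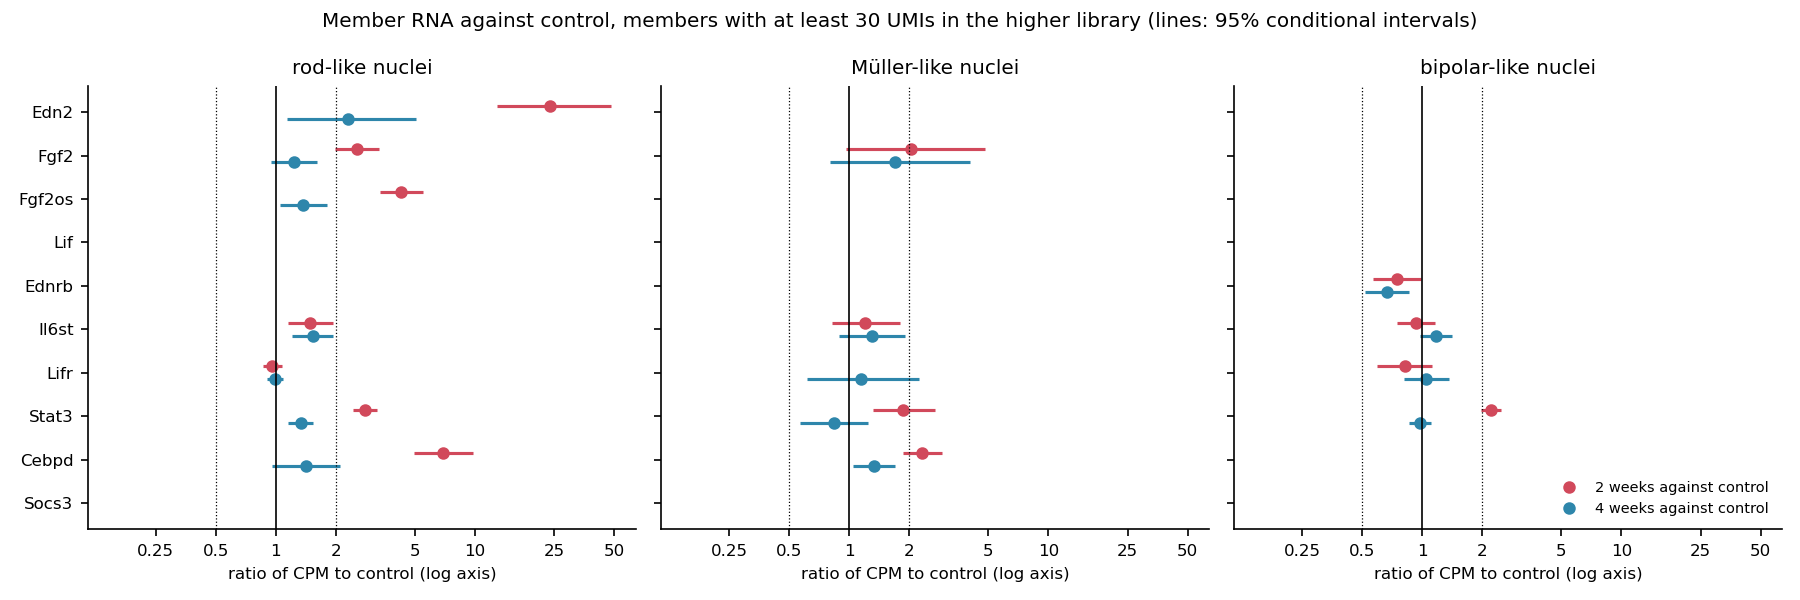
Ratio of each member's CPM to the control on a log axis (horizontal), 1 row per gene and 1 panel each for rods, Müller glia and bipolar cells, at 2 weeks and at 4 weeks, with 95% counting intervals and dotted lines at 0.5 and 2. Members under 30 UMIs have no point. In rods the 2-week points of Edn2 (23.6-fold), Cebpd (6.87-fold), Fgf2os (4.25-fold), Stat3 (2.79-fold) and Fgf2 (2.55-fold) lie to the right of their 4-week points, while Lifr and Il6st do not separate the 2 time points.

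Within rods, Edn2 molecules lay mostly in 1 cluster. Cluster 12 holds 143, 792 and 337 rod-like nuclei and is itself led by Fgf2os and Edn2, with Cebpd among its 10 leading genes, so its levels of these genes describe how it was found, and no comparison of its size is made. It held 11 of 11, 179 of 204 and 30 of 33 rod Edn2 UMIs, or 60.9, 252 and 72.6 CPM. Rods outside it were at 0, 6.77 and 0.436 CPM, at least 12.2-fold higher at 2 weeks than in the control (25 UMIs against 0, taken as 3 counts over the group). Within cluster 12 the 2-week Edn2 level was 4.14-fold the control (2.26 to 8.43) and the 4-week level 1.19-fold (0.58 to 2.63). Since Edn2 led the clustering too, nuclei with its RNA were drawn into cluster 12. Nothing is read from its split or from these ratios inside and outside.

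The other members divided in their own ways. Fgf2os in cluster 12 was at 260, 372 and 273 CPM, 1.43-fold at 2 weeks, and outside it at 7.01, 5.42 and 5.66 CPM, 0.773-fold (0.426 to 1.36). Since Fgf2os led the clustering, its nuclei were drawn into cluster 12, and nothing is read from its low level outside. Cebpd was at 166, 272 and 136 CPM inside and 2.4, 10.6 and 3.34 outside, 1.64-fold (1.11 to 2.49) and 4.41-fold (2.3 to 9) at 2 weeks. Cebpd is also among the leading genes of cluster 12, so nothing is read from its split either. Stat3 was at 133, 299 and 181 CPM inside and 50.7, 120 and 64.5 outside, 2.24-fold (1.47 to 3.58) and 2.37-fold (2.04 to 2.77). The Stat3 ratio was thus about the same inside and outside. Fgf2 was at 66.5, 95.7 and 87.1 CPM inside and 15.3, 33 and 16.8 outside, 1.44-fold (0.773 to 2.92) and 2.16-fold (1.62 to 2.89). Lifr, at 205, 144 and 162 CPM inside and 132, 126 and 132 outside, showed no 2-week excess in either.

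Depth was much alike in cluster 12 and the other rods. Its median UMI counts were 1139, 761 and 1111, against 1165, 687 and 1016 in the other rods. The 11 Müller markers summed to 88.6, 132 and 111 CPM in it and 165, 228 and 164 CPM outside, and the 10 rod markers to 31042, 34094 and 27981 CPM against 37741, 35587 and 29565. The 9 pericyte or smooth muscle markers stood at 77.6 CPM in its control nuclei against 16.4 CPM outside, and at 8.45 and 9.68 CPM at 2 and 4 weeks. The part of these in the result was not tested. When all 10 members were left out of the clustering, an alternative chosen after seeing the data, 934 of the 1272 cluster 12 rods (73.4%) fell in 1 cluster of 2389 rods. That cluster was picked for holding the most cluster 12 rods, so its choice still depends on the members' RNA. Edn2 was at 24, 82.2 and 29 CPM in that cluster and at 1.11, 30.5 and 2.11 CPM in the other rods, which then held 93 of the 204 UMIs at 2 weeks. Fgf2os was at 76.7, 134 and 87.1 CPM in that cluster and at 12.8, 33.7 and 14.3 CPM in the other rods, so its 2-week level was then the highest in both. Cebpd was at 95.9, 121 and 65.7 CPM and at 4.26, 22.6 and 5.42 CPM.

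**Figure D4:**
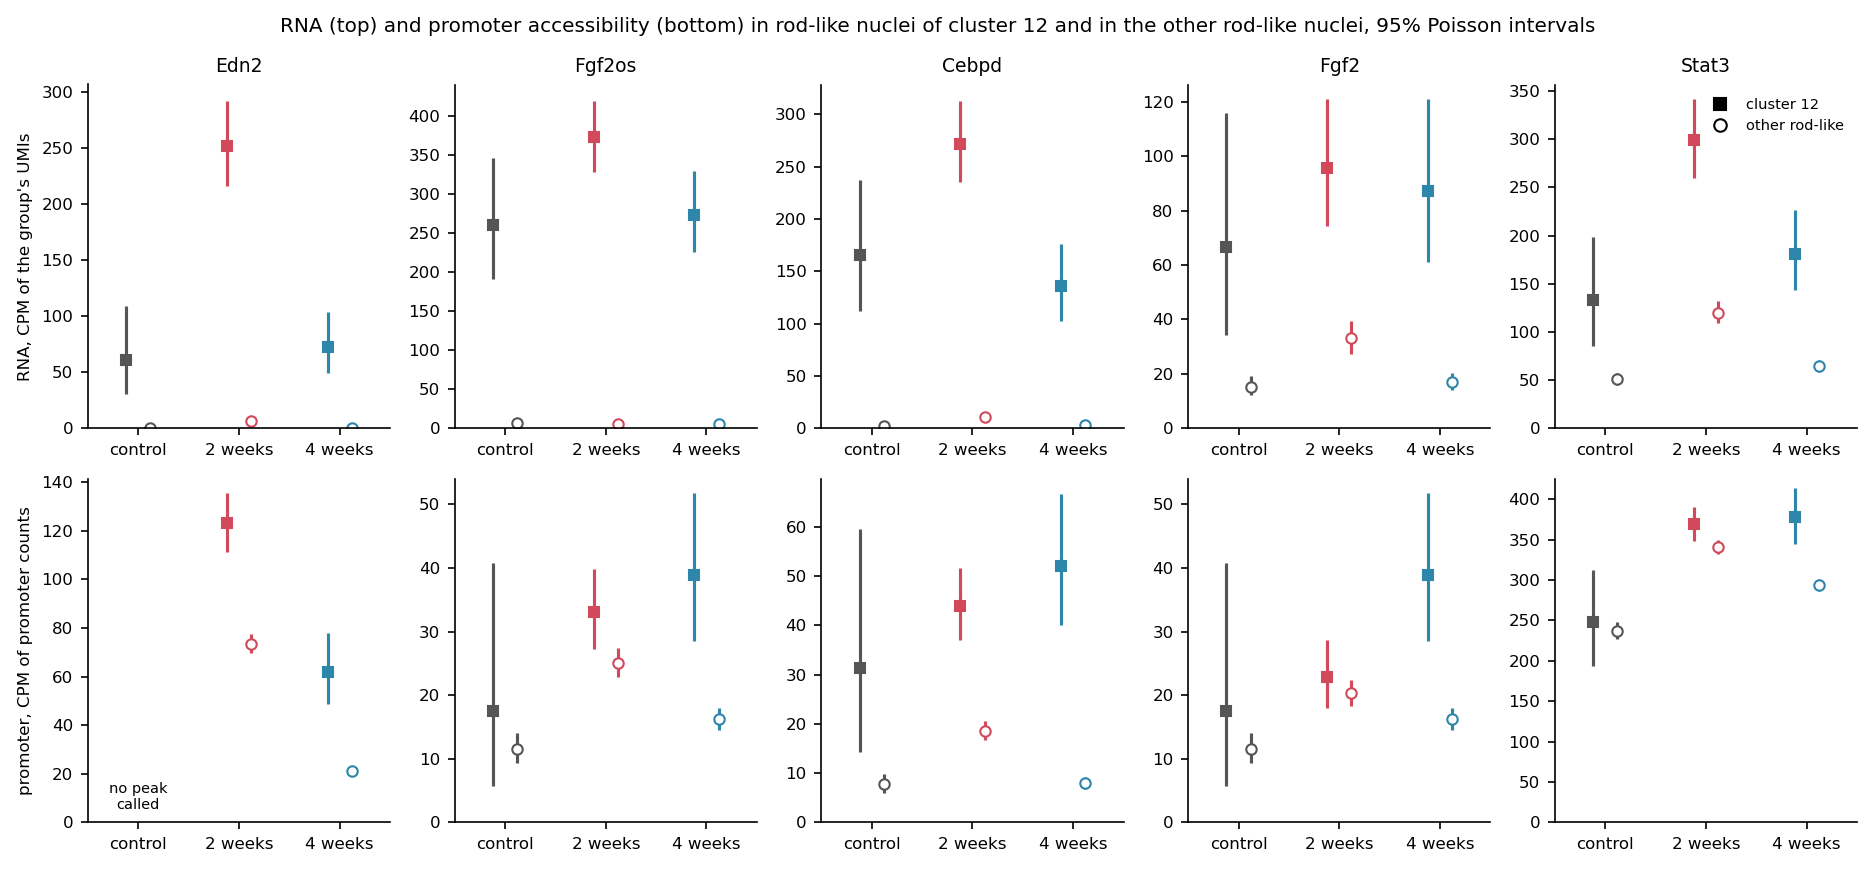
RNA level in CPM (top row) and promoter CPM (bottom row) of Edn2, Fgf2os, Cebpd, Fgf2 and Stat3 in cluster 12 (squares) and in the other rod-like nuclei (open circles), by library, with exact 95% counting intervals. The 2 groups of rods are far apart in RNA for Edn2 (252 and 6.77 CPM at 2 weeks) and nearer in promoter counts (123 and 73.4 CPM). Edn2 RNA led the clustering and promoter counts took no part in it, so nothing is read from this contrast. With the 10 members left out of the clustering, the 2-week RNA levels were 82.2 and 30.5 CPM. The cluster used there was picked for its overlap with cluster 12, so that contrast is not free of Edn2 RNA either.

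The ATAC counts of the same nuclei took no part in the clustering. At the Edn2 start, cluster 12 had 123 promoter CPM and the other rods 73.4 at 2 weeks, a ratio of 1.67 (1.49 to 1.87). At 4 weeks they had 62 and 21.2 CPM, a ratio of 2.92 (2.26 to 3.73). At Cebpd the ratio was 4.07 (1.78 to 8.21), 2.36 (1.93 to 2.87) and 6.56 (4.83 to 8.8), in the order control, 2 weeks and 4 weeks. At Fgf2 it was 1.52 in the control and 2.4 at 4 weeks (1.73 to 3.27), and at 2 weeks the levels were 22.9 and 20.3 CPM. At Stat3 it was 1.05, 1.08 and 1.29 and at Lifr 1, 0.959 and 0.99. Over all promoters the median ratio was 1.03, 1 and 1, and the 5th to 95th percentiles were 0.735 to 1.51, 0.85 to 1.25 and 0.788 to 1.3. At the Edn2 start cluster 12 thus had the higher promoter CPM. Its nuclei were grouped in part by Edn2 and Cebpd RNA, so the ratios at these 2 genes describe nuclei chosen by that RNA. Rods outside cluster 12 had counts at the Edn2 start too. Those rods held 25 of the 204 rod Edn2 UMIs at 2 weeks, a split shaped by clustering on that RNA. Nothing is read from their RNA beside their chromatin.

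Over all rod promoters, 2 of the 8 members measured were at least 2-fold more open at 2 weeks, beside 1.5% of 12429 promoters: Cebpd, and Fgf2os (2.25-fold), which takes in the Fgf2 peak and a further peak called at 2 weeks alone. The Fgf2os call rests on which peaks fall in the window. With peaks within 500 bp its log2 ratio was -1.08, which sets the Fgf2 peak in the control against the further peak at 2 weeks. Neither value compares the same peaks, so no change at the Fgf2os start is read from them. At 4 weeks it was 0 of 8, beside 0.345%. The median log2 ratio of the members was 0.46 at 2 weeks and 0.24 at 4 weeks, where all promoters had -0.06 and -0.06. Edn2 and Ednrb, with no control peak within 1000 bp, are not among the 8.

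**Figure D5:**
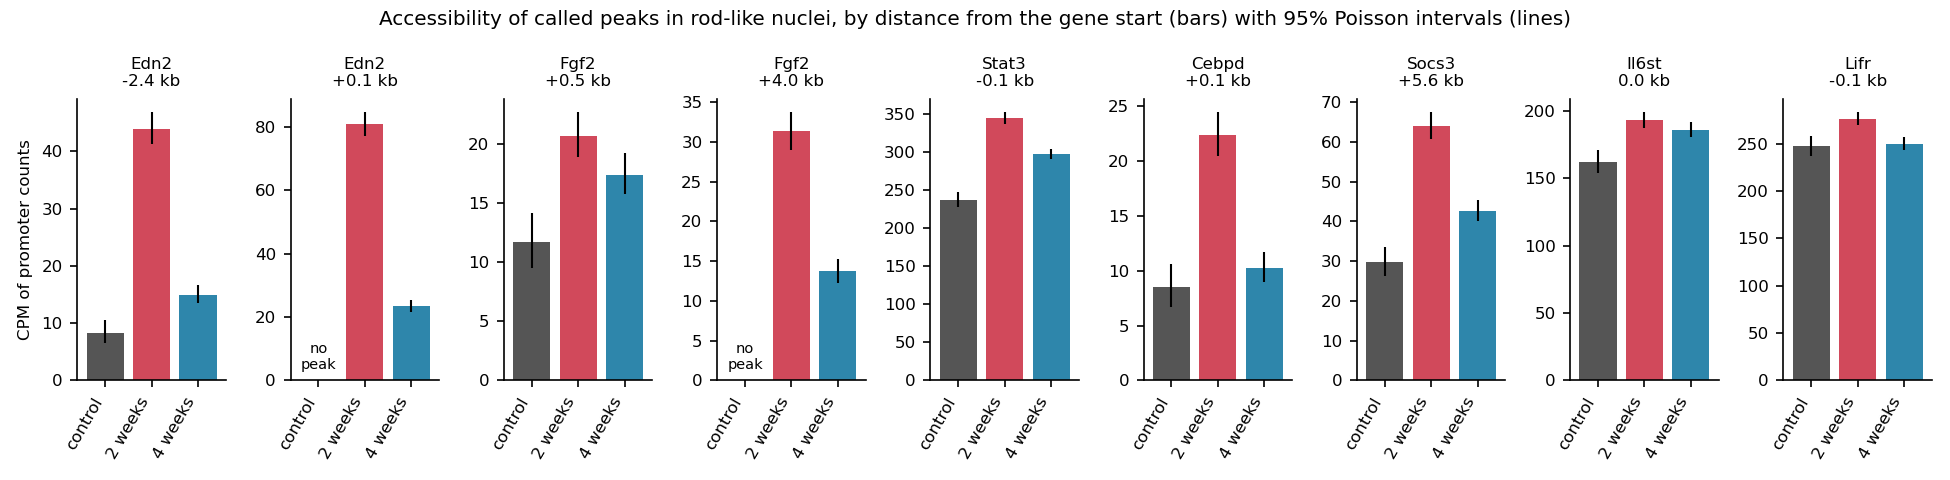
Rod-like ATAC level in promoter CPM (bars, vertical axis) at 1 peak per panel near Edn2, Fgf2, Stat3, Cebpd, Socs3, Il6st and Lifr, titled by distance from the gene start, for the 3 libraries (horizontal axis) with exact 95% counting intervals. The peaks shown were picked after their values were seen, so nothing is read from the 2-week bar being the highest in each panel. Other rod peaks of the same genes, not shown, were highest in the control. Among these, the Socs3 peak 17.6 kb upstream had 83.4, 63.2 and 71.6 CPM. The Lifr peak 44.5 kb upstream had 12.1, 2.87 and 3.54 CPM. The Edn2 start and the Fgf2 peak at 4.0 kb have no control bar because no peak was called there.

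Members also met in the same nuclei. At 2 weeks, of the 174 rods with an Edn2 UMI, 12.1% (7.63 to 17.9) had a Cebpd UMI, against 2.25% (1.88 to 2.68) of the 5500 rods without. For Fgf2os the shares were 14.9% and 3.8%, for Fgf2 8.05% and 2.93%, and for Stat3 20.7% and 9.15%. For Lifr they were 12.1% and 8.87%. The nuclei with an Edn2 UMI were somewhat deeper, at a median of 749 against 695 UMIs, and the part of depth was not tested.

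Lists of pathway genes, chosen with results of these data known, place the members among their neighbours. The lists also hold members that these ratios chose, and Osmr is in more than 1 list. Nothing is read from the list counts. Of 22 genes known as STAT3 targets, 12 were measured in 2-week Müller-like nuclei and 9 were at least 2-fold higher, beside 5.83% of all genes, with a median log2 ratio of 1.43 where all genes had 0.03. The largest ratios were those of Lcn2, an iron-binding acute phase protein (16.1 and 299 CPM, 18.6-fold, 8.4 to 51.2), Serpina3n, a protease inhibitor of reactive glia (10.7 and 147 CPM, 13.7-fold), and Fos (5.36 and 76.7 CPM, from 2 UMIs in the control). Pim1 (3.96-fold) and Gfap, a filament gene used to mark glial stress (3.75-fold, 1.59 to 10.8), followed. At 4 weeks 4 of 11 were at least 2-fold higher, beside 2.51% of all genes, Lcn2 at 453 CPM, Serpina3n at 47.3, Pim1 at 53.4 and Gfap at 40.

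In rods 4 of 8 STAT3 target genes were at least 2-fold higher at 2 weeks (3.08% of all genes) and 0 of 7 at 4 weeks (0.349%). The median log2 ratios were 1 and -0.01. The 4 were Cebpd, Junb (12 and 30.4 CPM, 2.55-fold), Fos (2.23-fold) and Lcn2 (2.55-fold). Rod Lcn2 was at only 3.21 and 8.18 CPM, from 18 and 36 UMIs, far below its 2-week Müller-like level. The 11 Müller markers summed to 163 and 213 CPM in control and 2-week rods, beside 25269 and 23140 CPM in Müller-like nuclei. The part of Müller RNA in rod Lcn2 was not tested. In bipolar-like nuclei 3 of 9 were higher at 2 weeks (1.84% of all genes), A2m (3.02-fold), Cebpb (2.27-fold) and Fos (2.04-fold). Of the 11 Janus kinases and STATs, 1 of 6 measured was higher in 2-week rods (Stat3) and 2 of 8 in bipolar-like nuclei (Stat3 and Tyk2, 2.01-fold). Of the 16 STAT feedback genes, 0 of 12 measured in rods were higher, beside 3.08% of all genes. In Müller-like nuclei 1 of 8 was (Pias4, 2.56-fold), beside 5.83% of all genes.

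Among the receptor chains, Osmr, the oncostatin M receptor that pairs with gp130, was 2.22-fold higher in 2-week Müller-like nuclei (64.3 and 143 CPM, 1.41 to 3.61). It was the only 1 of 4 measured there to pass 2-fold, beside 5.83% of all genes. In rods 0 of 3 did, beside 3.08% of all genes. Of the gp130 ligands, Il27 alone was measured in rods, at 82.3 and 180 CPM (2.19-fold). It was also higher in the other 4 classes where it was measured, at similar 2-week levels. These were amacrine-like (155 CPM, 3.45-fold), cone-like (150 CPM, 3.23-fold), Müller-like (126 CPM, 3.14-fold) and bipolar-like nuclei (124 CPM, 2.11-fold). At 4 weeks its log2 ratio to the control was 0.48 in rods and in amacrine-like nuclei, 0.81 in cones and 0.36 in bipolar-like nuclei, all below 2-fold. Of the endothelin list, Edn2 alone was measured in rods, and 0 of 3 in bipolar-like nuclei passed 2-fold, beside 1.84% of all genes. Of the FGF receptor and feedback genes, Etv5, a transcription factor gene known to respond to FGF, was 3.37-fold higher in 2-week rods (1.98 to 5.96). It was 1 of 7 measured, beside 3.08% of all genes. Spry2, an FGF feedback inhibitor, was 2.35-fold higher in Müller-like nuclei as 1 of 7, beside 5.83% of all genes.

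Over the 18 pairs of 6 classes and 3 libraries, the genes most like Edn2 in log2 level were Fgf2os (Pearson r = 0.85), Usp4 (0.84) and Gm10801 (0.83). Those most like Stat3 were Tmbim1 (0.88) and Rnh1 (0.87), and those most like Ednrb were Mgarp (0.93), Cntn1 (0.91) and Rora (0.90). The points share libraries, depth and rod RNA, and genes were picked for the highest values, so these are descriptions.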

How the data were processed

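RNA and ATAC counts were read from the deposited filtered matrices, 1 per library, which hold whole-number UMI counts per gene and counts per peak, not normalized, per the file headers. The submitters' processing notes name Cell Ranger ARC 2.0.1, Seurat 5.0.1, Signac 1.12.0 and the build mm10; peaks differ between the 3 matrices, so they were treated as called in each library. Strand use in counting is not given in the sources used here. The members and lists were chosen with earlier results of these data known.

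Nuclei with at least 500 UMIs and 300 genes and at most 10% mitochondrial UMIs were kept (7683, 9901 and 9637 of 8556, 13528 and 10334 barcodes). Scrublet's automatic threshold marked 0, 1 and 0 nuclei and was not used; the highest scores at 0.8% per 1000 nuclei were removed as doublets (511, 905 and 806). With scanpy 1.11.5, 2000 variable genes, 30 components and 15 neighbours went into Leiden clustering at resolution 1; some clusters were split at 0.5, and a class name needed at least 3 enriched markers (4 after a split). Counts were summed per class and library as CPM. Ratios carry conditional binomial intervals, levels Poisson intervals and shares Clopper-Pearson intervals. The ratio script was tested on simulated data. A gene counts as measured with 30 UMIs in the higher library. Peaks within 1000 bp of the gene start are promoter peaks; overlapping peaks within 20 kb were matched across libraries, an alternative added after seeing the data.

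Genes named in the text are the members in classes with 50 or more nuclei per library, up to 5 genes per list past 2-fold, and for Edn2, Stat3 and Ednrb the 3 genes most alike in log2(CPM + 5) among genes reaching 50 CPM. Some results under this rule are not reported here. Smaller classes, Ednrb clusters, Fgf2, Lif and Socs3 counts below 30 UMIs and single peaks were named after their values were seen. Alternatives changed the filters, doublets, clustering, naming, UMI minimum, rod RNA, peak window and ATAC scale.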

Additional observations from a re-analysis of the deposited data

How the results depend on the processing

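No paired analysis was possible because each group is 1 library and its number pairs nothing; for the same reason no replicate could be left out. Of 62 recomputed counts of members at least 2-fold higher, 50 stayed within 1.5 times the value given. Of 251 recomputed log2 ratios of members, 244 moved by less than their counting interval. None of those at least 2-fold changed sign, but 9 smaller ones did, 3 of them by more than the interval. Of 217 promoter log2 ratios, 202 moved by less than theirs and 14 changed sign, 4 by more than the interval.

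In 4-week rods the count of 1 became 0 with nuclei of at least 1000 UMIs, with classes by the highest marker score and with each library clustered alone. In that last setting the 4-week rod log2 ratios were -1.20 for Fgf2os and -0.65 for Cebpd, both positive (0.46 and 0.50) as reported. In 2-week Müller-like nuclei the count of 2 became 1 with each library clustered alone, at Leiden resolution 0.5 and with estimated rod RNA subtracted. In 4-week Müller-like nuclei the count of 0 became 2 with members of at least 10 UMIs and 2 with no minimum. In 2-week bipolar-like nuclei the count of 1 became 2 with called doublets kept, 2 with members of at least 10 UMIs and 4 with no minimum. In 4-week bipolar-like nuclei the count of 0 became 1 with rod RNA subtracted, through Lifr, whose 2-week bipolar log2 ratio also turned, from -0.29 to 3.73. With peaks within 500 bp the Fgf2os promoter log2 ratio in 2-week rods reversed to -1.08 and that in Müller-like nuclei turned to -2.92. In that window the libraries compared hold different peaks. Per kb of peak, the Socs3 promoter log2 ratio in 2-week rods turned from 0.08 to -0.38 and that of Lif in 4-week bipolar-like nuclei from -0.60 to 0.39. Except where the construction shows it, the cause was not tested. Depth limits Lif, Socs3 outside cones and Ednrb in Müller-like nuclei.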
